A study of Sus scrofa with 8 samples.

Results

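The regions described here are stretches of the pig genome that carried H3K27ac in pre-gastrulation epiblast stem cells (pgEpiSC), had no H3K27ac island in embryonic fibroblasts (pEF), and lay in the interior of protein-coding genes. An island is a run of neighbouring windows rich in ChIP reads, which the caller then compares with input. Overlapping islands of the 4 H3K27ac libraries on chromosomes 1 to 18 gave 98547 merged regions. A region was kept if it was under 20 kb wide, held an island of both pgEpiSC libraries and of neither pEF library, overlapped a protein-coding gene, and stayed clear of the 2 kb on either side of any gene end. This left 9370 regions, 9.51% of all merged regions and 44.5% of the 21044 epiblast-only regions under 20 kb. A further 8320 epiblast-only regions lay between genes and 3354 at gene ends. The presence or absence of islands in all 4 libraries chose the regions, so their presence in pgEpiSC and absence from pEF is the rule and not a result.

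The study profiled H3K27ac in 2 pig cell types with matching input libraries. The 2 pgEpiSC libraries, numbered 1 and 4, were made from stem cells derived from the epiblast at embryonic day 10. The 2 pEF libraries, numbered 1 and 2, were made from fibroblasts of day 30. No genotype, agent or treatment is given for either type. The labels do not say whether the libraries of a type come from separate animals, lines or cultures, so p-values measure only the spread between these libraries, which may be technical.

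H3K27ac is an acetylation of histone H3 that marks active promoters and enhancers. Enhancers often lie inside genes, in introns, and may act on the host gene or on a neighbour. The epiblast is the pluripotent epithelium that gives rise to the embryo proper, whereas fibroblasts are mesenchymal cells that make extracellular matrix.

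Islands held 29.7 M ChIP reads in pgEpiSC 1, 38.2 M in pgEpiSC 4, 42.4 M in pEF 1 and 46.4 M in pEF 2. Median enrichment over all islands was 1.79 and 1.67 in pgEpiSC and 3.40 and 3.45 in pEF. All 10 epiblast markers had islands at their gene ends in both pgEpiSC libraries, and 5 had them in each pEF library. All 10 fibroblast markers had one in both pEF libraries and 5 did in each pgEpiSC library. Markers of other cell types with such an island numbered 3 and 4 of 6 in pgEpiSC and 0 in pEF for endothelium, 4 and 5 against 2 of 6 for blood, 0 against 2 of 5 for trophectoderm, and 4 of 6 in every library for neural cells. Their part in the results below was not tested. In these bulk samples a mark present in fewer cells and a weaker mark in each cell cannot be told apart.

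Epiblast-only regions inside genes were narrow and weakly enriched. They covered 66.6 Mb in all, with a median width of 6.2 kb, quartiles of 4.6 and 8.8 kb, and extremes of 200 bp and 19.8 kb. In 86.6% of them each pgEpiSC library contributed a single island, and a median of 65.4% of the region was covered in both. The median region held 269 ChIP reads in pgEpiSC 1 and 348 in pgEpiSC 4, against 175.5 and 181 input reads. Median enrichment over input, scaled to library size, was 1.69-fold in pgEpiSC 1 and 1.63-fold in pgEpiSC 4, with 5% of regions under 1.21-fold in each and 5% above 2.64-fold and 2.49-fold. The enrichment of the 2 libraries differed by under 1.5-fold in 92.0% of the regions. Only 985 regions (10.5%) reached 2-fold in both libraries, 40 reached 3-fold and 2 reached 4-fold. At the weak end, 292 regions had an FDR above 0.05 in at least 1 of the libraries, and 17 had fewer scaled ChIP reads than input reads in both.

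Regions with islands in pEF alone stood higher over input. The 7050 fibroblast-only regions inside genes had a median width of 4.0 kb and a median enrichment of 3.02-fold in pEF 1 and 2.98-fold in pEF 2, and 84.3% and 84.0% of them reached 2-fold. The same gap between cell types was present where both had the mark: the 4364 shared regions inside genes had medians of 1.76 and 1.68 in pgEpiSC and 3.52 and 3.54 in pEF. Enrichment was therefore compared only within pgEpiSC. There, epiblast-only regions between genes had medians of 1.83 and 1.74, with 36.8% and 29.1% of them at 2-fold against 23.1% and 19.2% inside genes. Those at gene ends had medians of 1.70 and 1.61. Since the islands of all 4 libraries chose these sets, none of these differences was tested.

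**Figure D1:**
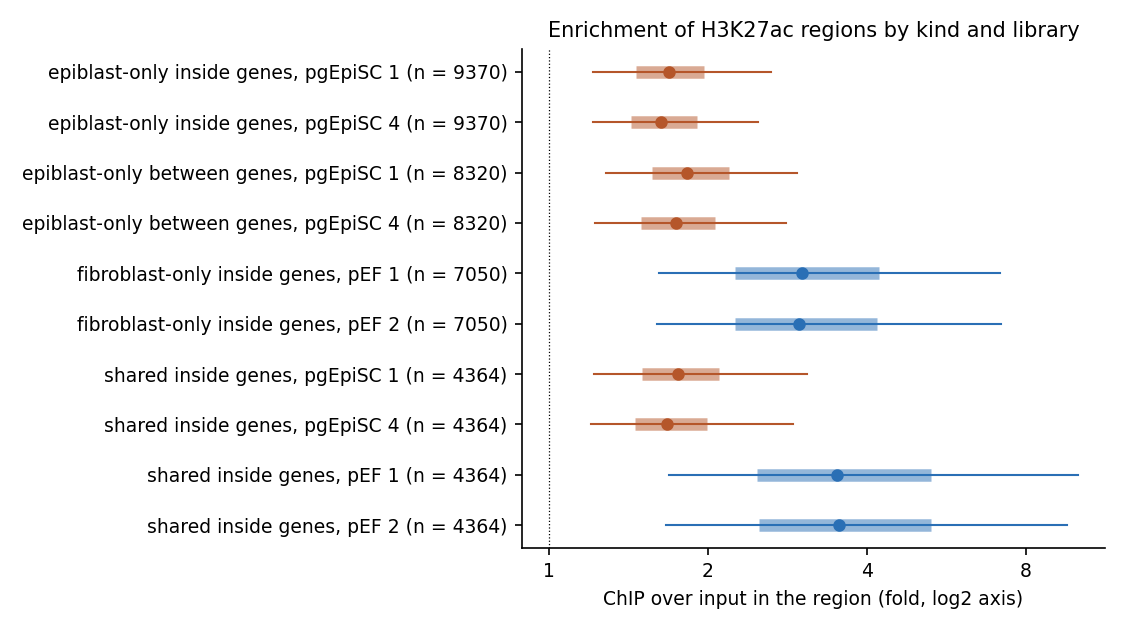
Enrichment of ChIP over input reads (fold, log2 axis) for each kind of region and library, as the median (point), the quartiles (thick bar) and the range from the 5th to the 95th percentile (line). Epiblast-only regions inside genes centre on 1.69 and 1.63 in pgEpiSC, shared regions inside genes on 1.76 and 1.68 in pgEpiSC and on 3.52 and 3.54 in pEF.

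The regions varied with their width and position. Regions of 15 kb or more were more enriched than those of 2 to under 10 kb. Medians were 1.70 and 1.64 in pgEpiSC 1 and 4 for the 2749 regions of 2 to under 5 kb, 1.65 and 1.61 for the 4847 of 5 to under 10 kb, and 1.87 and 1.79 for the 418 of 15 kb or more. The share at 2-fold or more in both libraries was 8.15%, 8.46% and 30.1% in the same order, and 22.7% of the 66 regions under 2 kb. Regions deep inside long genes were also higher. Those 2 to under 10 kb from a gene end had medians of 1.66 and 1.57, with 7.55% at 2-fold in both libraries, whereas the 758 that lay 200 kb or more from any gene end had medians of 1.82 and 1.79, with 18.1%. Input reads per kb ran the other way, at 35.4 and 39.3 against 32.5 and 34.5, while ChIP reads per kb were 55.0 and 73.0 against 56.3 and 72.5.

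The limits of the rule did not fall at a step in the values. The 121 regions of 18 to under 20 kb had median enrichments of 1.99 and 1.95, and the 84 epiblast-only regions of 20 to under 22 kb, just too wide, had 1.94 and 1.92. The 260 regions within 3 kb of a gene end had medians of 1.68 and 1.55, and the 432 epiblast-only regions 1 to 2 kb from an end had 1.70 and 1.61. Inside genes 2884 regions had an island in pgEpiSC 1 alone (median 1.51) and 5923 in pgEpiSC 4 alone (median 1.45). Another 766 had islands in both pgEpiSC libraries and pEF 1, and 636 in both and pEF 2.

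The strongest regions were few, ranked here and below by the lower enrichment of the 2 libraries. Positions are those of the deposited lists. In SVOP, which encodes a vesicle protein related to SV2, the region at chr14:41833601-41841800 held 1189 ChIP against 316 input reads in pgEpiSC 1 and 1636 against 340 in pgEpiSC 4, an enrichment of 3.95 and 4.03. In FAF1, a binding partner of the death receptor FAS, the 19.6 kb region at chr6:161360201-161379800 held 2403 and 3150 ChIP reads, the most of any region in each library, at 3.90-fold and 3.82-fold. In CROT, a peroxisomal carnitine acyltransferase, chr9:93269601-93276600 reached 5.12-fold and 3.54-fold. The other 2 of the 5 highest by that rank lay in the uncharacterised genes LOC100737183, at 4.32 and 4.26, and LOC100512905, where the 1.6 kb region held only 79 and 197 ChIP reads at 7.54-fold and 4.46-fold. The FAF1 region was the sole one among 10 in that gene to reach 2-fold in both libraries.

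A ranking by read density picked other regions. The 5 with the most ChIP reads per kb were 0.2 to 0.6 kb wide, and 3 of them were below input in both libraries. The densest, 0.4 kb in the sarcoglycan gene SGCD at chr16:66894401-66894800, held 585 and 621 ChIP reads but 4963 and 4892 input reads, an enrichment of 0.124 and 0.106. Without it, SGCD kept 4 regions. The widest regions were 19.8 kb, and the 5 taken from these ties by position lay in NKAIN2, PTPRD, CACNG4, ERC2 and PCDH15. CDH4 also held a region of 19.8 kb, at 1.87-fold and 1.77-fold. The 5 ranged from 1.54-fold and 1.22-fold in the calcium channel subunit gene CACNG4 to 3.39-fold and 2.71-fold in PCDH15. PCDH15 is a protocadherin of sensory hair cells, and its region lay at chr14:95988001-96007800.

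The 9370 regions lay in 3706 of 18722 protein-coding genes (19.8%), and 54 of them lay in more than 1 gene. Most hosts held few: 1868 (50.4%) had 1 region and 1365 had 2 to 4. At the other end, 473 genes had 5 or more and together held 3983 regions, and 115 genes had 10 or more. Hosts were long, with a median length of 105 kb against 20.7 kb for all genes. The share of genes with a region climbed from 6.12% of genes under 50 kb to 46.6% at 50 to 200 kb, 79.1% at 200 to 500 kb and 93.9% at 500 kb or more. Density per Mb of gene interior takes length into account only in part, since a whole region must fit between the end windows, which limits short genes most. It was 6.06, 9.52, 10.4 and 10.2 in the same classes, against 5.24, 7.78, 7.78 and 6.25 for fibroblast-only regions. By chromosome the density of epiblast-only regions ran from 7.76 per Mb on chromosome 4 to 11.6 on chromosome 3. On chromosome 13 it was nearly equal to that of fibroblast-only regions, at 8.50 and 8.39.

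Of the regions, 12.7% had their centre in the outermost 10% of the gene at one end or the other and 56.3% in its middle 50%, against 12.8% and 55.3% of fibroblast-only regions. The rule keeps both kinds away from gene ends. The median distance to the nearest gene end was 34.5 kb. Other epiblast-only regions were close by, at a median of 13.4 kb and within 10 kb in 43.7%. The nearest shared region was 32.2 kb and the nearest fibroblast-only region 98.9 kb away. The other kinds inside genes also lay near their own kind. The median was 18.6 kb for fibroblast-only regions (37.2% within 10 kb) and 12.1 kb for shared ones (46.5%). Fibroblast-only regions were 64.4 kb from the nearest epiblast-only one.

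**Figure D2:**
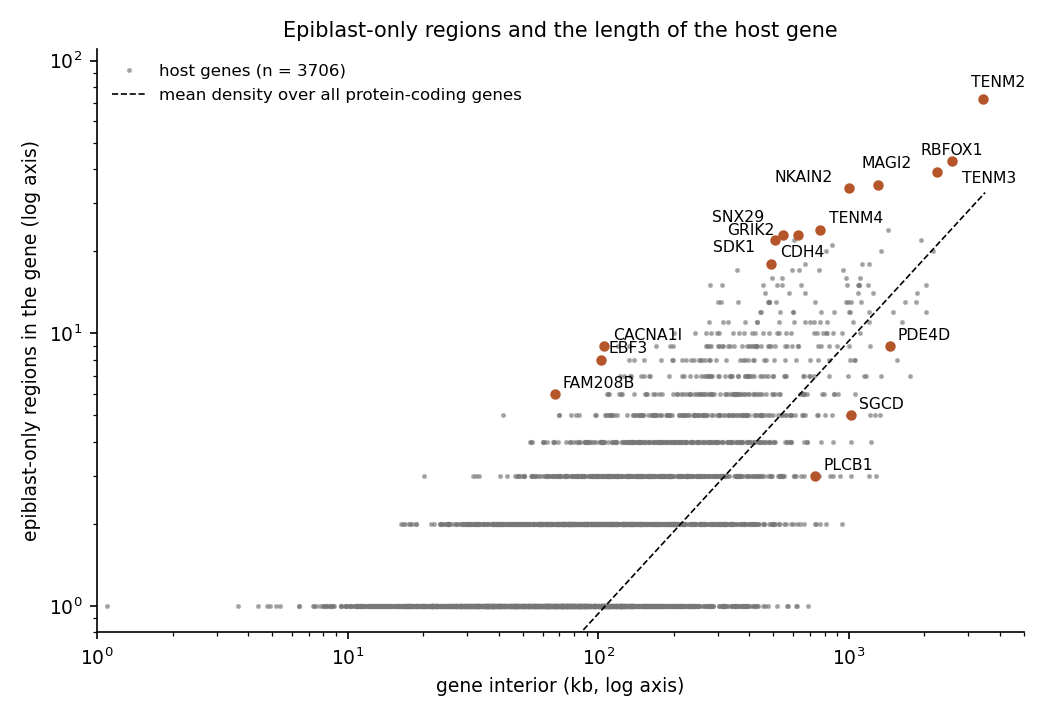
Number of epiblast-only regions in each of the 3706 host genes against the length of the gene interior, both on log axes, with the mean density over all protein-coding genes as a dashed line. TENM2 holds 72 regions and TENM3 43; PDE4D and PLCB1, with 9 and 3, lie below the line.

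The genes with the most regions were long, and 3 teneurin genes were among them. TENM2, TENM3 and TENM4 encode teneurins, transmembrane adhesion proteins that pair across synapses, and held 139 epiblast-only against 27 fibroblast-only regions, or 20.5 against 3.98 per Mb. TENM2 led all genes with 72 regions over its 3459.9 kb, and 15 of them reached 2-fold in both libraries. Its strongest, 11.8 kb at chr16:58856201-58868000, held 1295 ChIP and 342 input reads in pgEpiSC 1 and 1536 and 387 in pgEpiSC 4, an enrichment of 3.98 and 3.32. Neither end of TENM2 had an island in any library. TENM3 held 43 regions, the strongest at chr15:42091001-42104200 with 2.92-fold and 2.89-fold, and TENM4 held 24, none above 2.58-fold.

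The other leaders shared the pattern of many weak regions spread through a long gene. RBFOX1, a neuronal splicing regulator, held 39 regions against 1 fibroblast-only region, MAGI2, a scaffold protein of synapses and junctions, 35 against 4, and NKAIN2, whose product binds a sodium pump subunit, 34 against 1. FHIT, a nucleotide hydrolase gene, held 24 against 7, and SNX29, a sorting nexin, 23 against 1. The kainate receptor gene GRIK2 and SDK1, an immunoglobulin-type adhesion gene, held 23 and 22 with no fibroblast-only region. Over these 7 genes the median enrichment ran from 1.57 in MAGI2 to 1.81 in RBFOX1 in pgEpiSC 1, and from 1.54 in FHIT to 1.86 in GRIK2 in pgEpiSC 4. In all, 33 of the 115 genes with 10 or more regions had no fibroblast-only region, and 21 of the 66 genes with 10 or more fibroblast-only regions had no epiblast-only one.

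Shorter genes led when regions were counted per Mb of interior. Among genes with at least 5 regions the highest were FAM208B, with 6 regions and 89.7 per Mb, and the uncharacterised LOC106508372, with 5 and 121 per Mb. The T-type calcium channel gene CACNA1I followed with 9 regions and 85.1 per Mb, EBF3, a transcription factor of neural development, with 8 and 78.3, and the phosphatase gene LHPP with 9 and 75.05. HAPLN1, BANP, JAKMIP1, RCSD1 and SYTL3 completed the 10, at 61.1 to 71.4 per Mb. Apart from CACNA1I, which had 1, none of the 10 held a fibroblast-only region. Enrichment was ordinary here too, with medians of 1.59 and 1.56 in CACNA1I and 1.80 and 1.44 in EBF3.

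Regions could follow each other over long stretches without an interruption by pEF. Runs of merged regions with no pEF island numbered 5513 with at least 1 of the 9370 regions, and 238 runs of 5 or more held 1670 regions (17.8%). The longest by count lay in TENM2, with 27 over 1468.6 kb (chr16:57997201-59465800). It was followed by 22 over 582 kb in GRIK2, 20 over 467 kb in NKAIN2 and 18 over 424 kb in the R-cadherin gene CDH4. Next came runs tied at 17, over 953 kb at TMEM132D, 727 kb at CACNG3, LOC110260108 and PRKCB, and 347 kb at DNAH9 and SHISA6. CDH4 was packed most closely of the genes drawn, with a median of 19.9 kb between the centres of its 18 regions, against 26.6 kb in TENM2 and 142.5 kb in PDE4D. These runs were ranked after their values were seen and include regions outside genes.

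**Figure D3:**
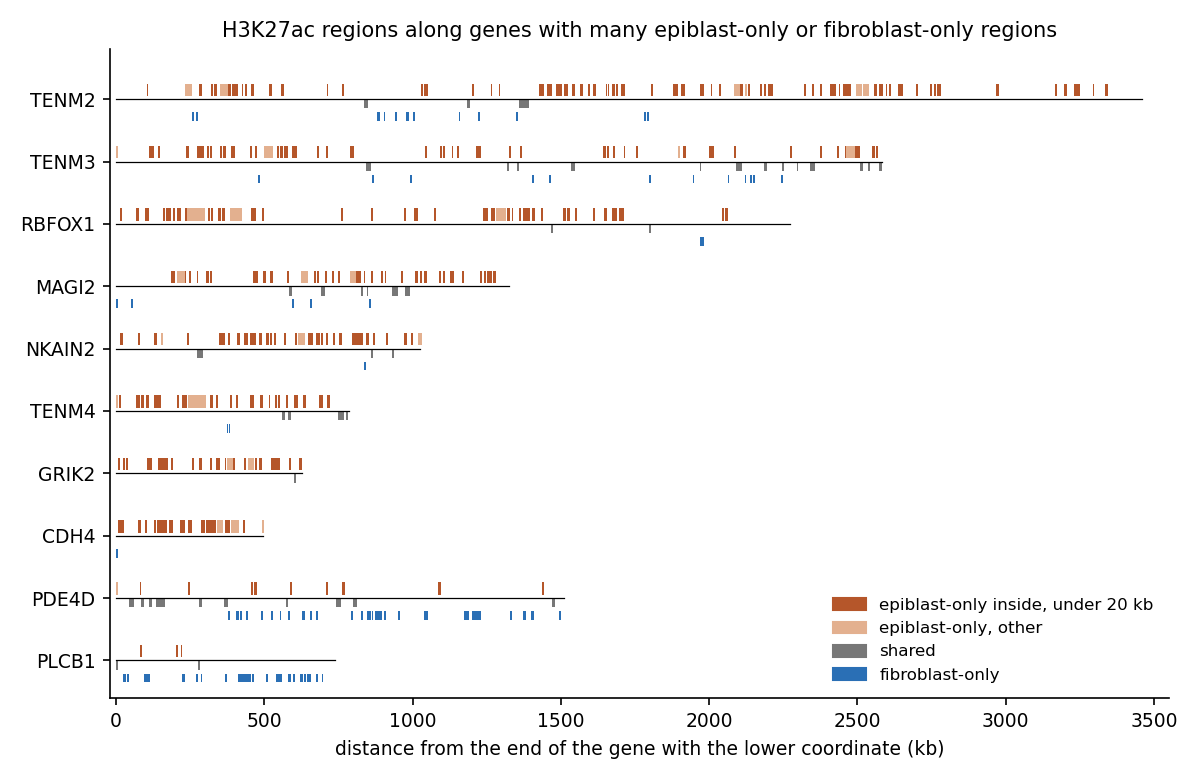
Merged H3K27ac regions along 10 genes, by distance (kb) from the gene end with the lower coordinate: epiblast-only regions above the line, those outside the rule (wider, or at a gene end) in a pale tone, shared and fibroblast-only regions below it. GRIK2 and CDH4 carry 23 and 18 epiblast-only regions inside, and PDE4D and PLCB1 carry 24 and 25 fibroblast-only ones.

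Many long genes held both kinds. Of the host genes, 1437 also contained a fibroblast-only region, which is 38.8% of the hosts and 44.1% of the 3258 genes with fibroblast-only regions, and 234 genes held at least 3 of each. The balance differed from gene to gene. DLG2, a postsynaptic scaffold, held 22 against 14, and MACROD2, an ADP-ribosylhydrolase gene, 15 against 12. The reverse balance occurred in PDE4D, a cyclic AMP phosphodiesterase, with 9 against 24, in PLCB1, a phospholipase C, with 3 against 25, in the RNA-binding protein gene RBMS3 with 9 against 21, and in the potassium channel regulator KCNIP4 with 10 against 17. All 3 regions of PLCB1 had their centres within 218.5 kb of the gene end with the lower coordinate, in a gene of 738 kb. The median enrichment of PDE4D's 9 regions, 1.94 and 1.65, was no lower than that of all epiblast-only regions inside genes.

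Gene lists were compared by density per Mb of interior, beside 9.37 epiblast-only and 7.08 fibroblast-only regions per Mb over all protein-coding genes. Synaptic and axon guidance adhesion genes held the most regions of any list, 454 in 45 of 49 genes (91.8%). Their density was 12.4 against 4.24 per Mb, and the teneurins were the list's 3 leaders. Ion channels and neurotransmitter receptors had 213 regions in 38 of 44 genes (10.5 against 5.75 per Mb), led by GRIK2, by the GABA receptor subunit gene GABRG3 with 22 and by the calcium channel subunit gene CACNA2D1 with 13. Cadherins had 73 in 14 of 21 genes (11.7 against 4.48), with 18 in CDH4, 15 in CDH12 and 9 in CDH13. These lists hold long genes, with medians of 599, 424 and 140.5 kb. Of all genes of 50 to 200, 200 to 500 and 500 kb or more, 46.6%, 79.1% and 93.9% held a region, at 9.52, 10.4 and 10.2 per Mb. The median enrichment of the listed regions was 1.84 and 1.80, 1.78 and 1.77, and 1.76 and 1.71, against 1.69 and 1.63 for all such regions. By host length in the same 3 classes, it was 1.651 and 1.583, 1.691 and 1.642, and 1.795 and 1.753. Whether the lists differ from other genes of their length was not tested. When the regions were rebuilt from islands at least 2-fold over input, the synaptic list had 85 in 31 genes, 2.33 per Mb against 1.14 over all genes, cadherins 2.08 and ion channels 2.02.

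Epithelial and signalling lists were smaller. Epithelial adhesion and polarity genes held 29 regions in 11 of 30 genes, 13.4 against 6.02 per Mb, with 9 in the polarity gene PARD3, 5 in the tight junction gene TJP1 and 3 in GRHL2, a transcription factor of epithelia. The strongest of PARD3, chr10:57028601-57038400, reached 2.18-fold and 2.08-fold. The NODAL, activin and BMP pathway had 27 regions in 10 of 31 genes (12.1 against 5.39 per Mb), among them 6 in the receptor gene BMPR1B, 5 in the co-receptor gene TGFBR3 and 3 in the transducer gene SMAD4. The WNT pathway had 30 in 14 of 41 (10.6 against 6.38), with 10 in the receptor gene ROR1, 4 in ZNRF3, which removes WNT receptors from the cell surface, and 3 in the co-receptor gene LRP6. The FGF and MAPK pathway had only 9 in 4 of 26 genes (4.51 against 6.52), including 4 in the inhibitor gene SPRED2 and 3 in the kinase gene BRAF. Chromatin and DNA methylation enzymes had 61 in 16 of 42 (10.3 against 7.60), led by ARID1B of the BAF remodelling complex with 11, the histone methyltransferase gene KMT2C with 8 and the deacetylase gene HDAC4 with 7. With islands at least 2-fold over input, epithelial genes and the NODAL pathway had 1.39 and 1.35 per Mb, above the 1.14 of all genes and on 3 regions each. The WNT list, at 1.06, and chromatin enzymes, at 0.507, then lay below all genes.

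Lists of second messenger signalling and of fibroblasts leaned the other way. Cyclic nucleotide and phosphoinositide signalling genes had 121 in 30 of 34, at 8.39 against 12.5 per Mb, with 11 each in PRKCB and PLCL1 and 9 in DGKB. Mesenchymal transcription factors had 48 in 17 of 40 (7.26 against 13.5), including 7 in FOXP2 and 5 each in NFIB and TCF12. Adhesion and motility genes had 14 in 7 of 34 (2.97 against 15.9), of which ITGA9 held 4 and ITGB8 and PTK2 3 each. Fibroblast extracellular matrix genes had 4 in 3 of 27 (1.74 against 7.83): 2 in FBLN1 and 1 each in FBLN5 and VCAN. Housekeeping genes, with 0.132 Mb of interior in all, had none. Mesenchymal transcription factors had 8 regions in 7 genes with islands at least 2-fold over input. At 1.21 per Mb they then lay above the 1.14 of all genes. Second messenger genes, at 1.11, matrix genes, at 0.435, and adhesion and motility genes, at 0.212, lay below.

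**Figure D4:**
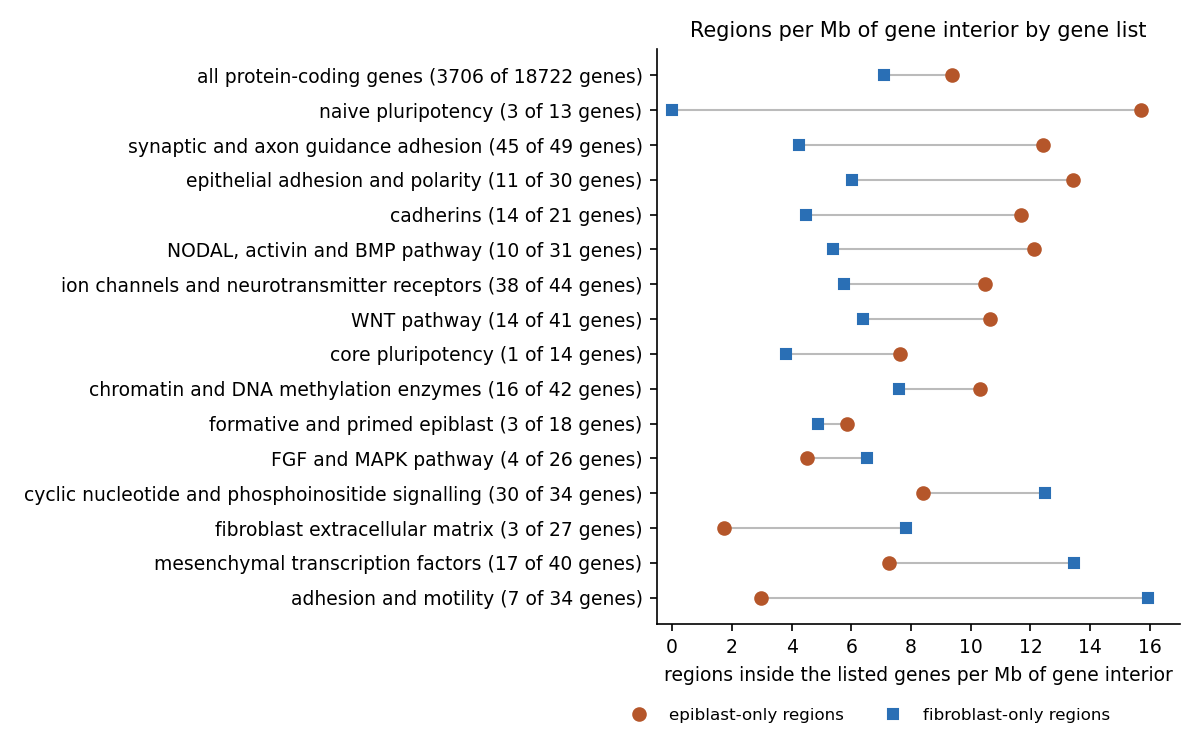
Epiblast-only (circles) and fibroblast-only (squares) regions inside the genes of each list shown, per Mb of gene interior, with the number of genes that hold an epiblast-only region. Synaptic and axon guidance adhesion genes lie at 12.4 against 4.24, adhesion and motility genes at 2.97 against 15.9, and all protein-coding genes at 9.37 against 7.08.

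The lists of pluripotency genes had little gene interior. Core pluripotency genes had 2 regions in 1 of 14 genes (7.65 against 3.82 per Mb, over 0.262 Mb), both in LIN28B, a regulator of let-7 microRNAs, where the stronger (chr1:71229001-71233000) held 237 and 293 ChIP reads at 1.84-fold and 2.17-fold. The formative and primed epiblast list had 6 in 3 of 18 genes (5.87 against 4.89 per Mb, over 1.02 Mb), with 3 in CDH2, 2 in LEF1 and 1 in TCF7L1. From islands at least 2-fold over input it had 2 regions in 1 gene, 1.96 per Mb against 1.14 over all genes. The naive list had 12 in 3 of 13 genes, 8 in PRDM16, 3 in the nuclear receptor gene ESRRB and 1 in NR5A2. That list had no fibroblast-only region and a density of 15.7 per Mb, over 0.765 Mb of interior. PRDM16 alone gave 8 of the 12 regions, so this density rests mainly on 1 gene and is no property of the naive list as a whole. The density without PRDM16 was not computed. None of the 12 regions of the naive list reached 2-fold in both libraries, and with islands at least 2-fold over input the list had none. The shares of genes with a region, 16.7% in the formative and 23.1% in the naive list, lay near the 19.8% of all genes, and that of the core list was 7.14%.

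Several of these genes lay under wide regions that crossed a gene end, which the rule leaves out. OTX2, a homeobox factor of the epiblast, lay under a single epiblast-only region of 37.4 kb with 5739 and 7004 ChIP reads in pgEpiSC at 3.83-fold and 3.25-fold. PRDM14, which maintains pluripotency, lay under an epiblast-only region of 57.2 kb, and SALL4, a zinc finger factor, under one of 35.8 kb next to a shared one. For shared regions, the reads given are those inside each library's own islands. One end of the methyltransferase gene DNMT3B lay in a shared region of 96.8 kb. Reads there were 13164 and 14025 in pgEpiSC and 2452 and 1812 in pEF. The other end lay in a shared region of 31.0 kb, with 1945 and 2721 against 2109 and 1733. At SMAD3, a transducer of activin signals, the balance was the reverse, with 1051 and 1692 reads in pgEpiSC and 6423 and 8928 in pEF over 43.4 kb at one end (log2 fold change -2.08, edgeR adjusted p = 0.00331) and a value of -0.77 at the other. DNMT3A, DNMT3B, CDH1, ZIC2, FGFR1, FGFR2, SMAD3 and TET1 had merged shared regions that reached an end and no epiblast-only region inside that met the rule. At CDH1 and TET1 both pgEpiSC libraries and neither pEF library had an island within 2 kb of an end. ESRRB had 3 regions that met the rule, at 1.32-fold to 1.94-fold, beside a wider epiblast-only one of 23.6 kb. The remodeller gene CHD7 had 3, GRHL2 3, the WNT feedback gene AXIN2 2, and TCF7L1 and the Polycomb factor JARID2 1 each. In GRHL2 the 3 regions held 455, 183 and 240 ChIP reads in pgEpiSC 1 and 364, 196 and 536 in pgEpiSC 4, while its gene end lay under 20.4 kb with 2433 and 2675.

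The ends of the host genes, which the rule did not use, were then examined. An island within 2 kb of an end was present in all 4 libraries for 67.5% of hosts and 61.4% of all genes, and in both pgEpiSC libraries but neither pEF library for 10.9% and 7.51%. The latter share was 15.4% for genes with 5 or more regions. Among the 33 genes of 500 kb or more that held epiblast-only and no fibroblast-only regions it was 42.4% (14 genes), against 15.9% of all 245 genes of that length. SDK1 and TMEM132D were 2 of these 14. NKAIN2, TENM4, GABRG3 and CDH12 had the same pattern at their ends but 1 or 2 fibroblast-only regions inside. It also occurred in genes with more of them inside, such as THSD7B with 9, KCNIP4 with 17 and PDE4D with 24. In RBFOX1, as in TENM2, no library had an island at either end, and at MAGI2 both pEF libraries alone had one.

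Reads at gene ends could be tested where all 4 libraries had an island in the merged region, though not always within 2 kb of the end. With edgeR's quasi-likelihood test, 22.7% of all 20051 regions with an island in every library were higher in pgEpiSC and 23.5% higher in pEF at an adjusted p under 0.05, and 11442 of these regions lay at gene ends. Of the 2610 host genes with such a region, 771 (29.5%) had one higher in pgEpiSC and 650 (24.9%) one higher in pEF, beside 23.7% and 28.4% of all 12075 protein-coding genes with such a region. The share higher in pgEpiSC was 22.1% of genes without an epiblast-only region, 26.3% with 1, 31.2% with 2 to 4 and 39.5% with 5 or more, and the share higher in pEF was 29.4%, 26.9%, 25.6% and 12.9%. The same order held within genes of 50 to 200 kb, at 19.2%, 25.3%, 32.4% and 42.6% higher in pgEpiSC. Hosts that also held fibroblast-only regions stood apart, with 19.4% higher in pgEpiSC and 36.2% in pEF, against 36.2% and 17.5% of hosts without them. The hosts were chosen from the same 4 libraries, so these shares are a description without a test.

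The measure mattered. Reads sum over the width of the islands, and with island width in place of reads, each library centred on its median (limma), 15.6%, 21.7%, 25.7% and 32.2% of genes in the same 4 classes had a wider end region in pgEpiSC. With centred reads per island kb the shares were 13.7%, 13.6%, 17.5% and 24.1%. Without centring, the median gene-end region stood at -0.95 (log2) in reads per kb and -1.46 in enrichment. Then 21 and 4 hosts were higher in pgEpiSC against 1773 and 2374 in pEF. Uncentred reads per kb are not scaled to library size, so both the lower depth and the lower enrichment of pgEpiSC enter them. Without TMM 36.4% of hosts were higher in pgEpiSC and 17.9% in pEF, since the median gene-end region moved from -0.15 to 0.09. Without pgEpiSC 1 or pgEpiSC 4 the calls fell to 10.5% and 11.8% of hosts in pgEpiSC and 8.55% and 7.89% in pEF; in those fits the lone library is assumed to vary like the pEF pair.

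**Figure D5:**
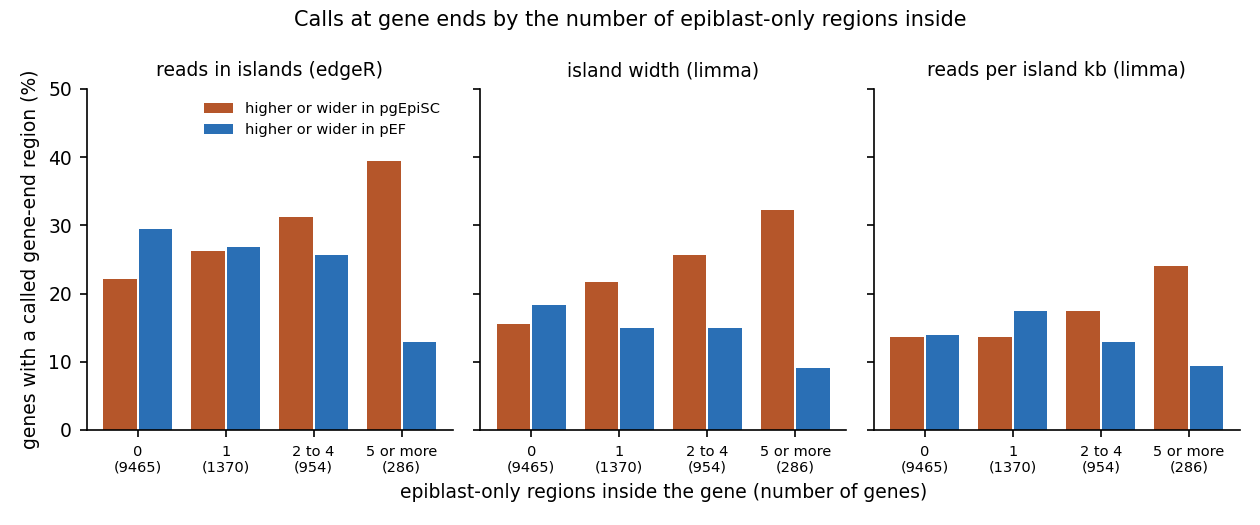
Share of genes (%) with a gene-end region called higher or wider in pgEpiSC or in pEF, by the number of epiblast-only regions inside the gene, for reads in islands, island width and reads per island kb (the limma fits with each library centred). For reads, the share higher in pgEpiSC is 22.1% with 0 regions and 39.5% with 5 or more.

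The largest differences at host gene ends involved wide regions. At CLYBL, which encodes a mitochondrial citramalyl-CoA lyase, an 87.2 kb region (chr11:68711001-68798200) lay at an end. Its islands held 7055 and 8283 reads in pgEpiSC and 73 and 169 in pEF, a log2 fold change of 6.42 (edgeR adjusted p = 0.00139). Here and below, reads of a region outside a library's own islands are not counted, so island extent enters each value. The neighbouring FGD4 and BICD1 shared a region of 65.4 kb (chr5:41853001-41918400). Its islands held 4531 and 4883 reads in pgEpiSC against 82 and 79 in pEF, at 6.29. In both regions the pgEpiSC and pEF libraries did not overlap, which follows from the choice of the largest rises and is no separate result. BICD1 held 8 epiblast-only regions, CLYBL 3 and FGD4 1. With uncentred enrichment over input in limma the CLYBL and BICD1 regions turned to -0.13 and -0.81, and BICD1 also to -0.35 in uncentred reads per kb. Without pgEpiSC 1 the BICD1 value was 3.98, and that of CLYBL was 5.77 to 6.97 without 1 library.

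Other named hosts higher in pgEpiSC were TENM3 (3496 and 5146 reads against 183 and 351, log2 fold change 4.43), PCDH15 (2163 and 1056 against 127 and 105, 4.27), ROR1 (2167 and 2057 against 108 and 211, 4.17), LIN28B (3747 and 3738 against 656 and 340, 3.33) and DLG2 (1553 and 1832 against 113 and 403, 3.15). These were the next largest among the named hosts, with edgeR adjusted p from 0.00168 to 0.012. Leaving out pgEpiSC 4 took TENM3 to 2.12, and leaving out pgEpiSC 1 took PCDH15 to 3.03 and ROR1 to 3.51. PCDH15 turned to -0.06 in uncentred enrichment, and DLG2, at 2.42 to 4.16 without 1 library, was not called when either pgEpiSC library was left out.

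The largest differences towards pEF were at hosts with 1 to 4 epiblast-only regions. LOC102164776 had 4 epiblast-only regions inside and a region of 98.0 kb at its end. The islands of that region held 236 and 223 reads in pgEpiSC and 27788 and 22464 in pEF (log2 fold change -6.34, edgeR adjusted p = 0.00124). Without pEF 1 its value was -3.45. The unconventional myosin gene MYO1D stood at -4.69, the microtubule minus-end gene CAMSAP2 at -4.61, the zinc finger gene ZNF438 at -4.54 and MALRD1 at -4.31, with 1, 1, 2 and 4 epiblast-only regions. ZNF438 held 14 fibroblast-only regions. PLCB1, with 25 of them, had 219 and 207 reads in pgEpiSC and 1711 and 1691 in pEF at its end (-2.56, edgeR adjusted p = 0.00234), a call that centred reads per kb and centred enrichment did not make.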

How the data were processed

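H3K27ac ChIP-seq was analysed from 4 deposited island lists, 1 per H3K27ac library (pgEpiSC 1 and 4, pEF 1 and 2); input reads stand inside the same lists. Per the submitters' processing notes, the tools were SICER 1.1, BWA 0.7.15 and SAMtools 0.1.19. Neither the genome build nor mapping or duplicate filters are stated: not given in the sources used here. In each list, deposited count columns hold the ChIP and input reads of each island. The deposited p-value columns hold the island's p-value against input and its FDR. The deposited ratio column is the fold of ChIP over input, scaled to library size by the authors, and the FDR reached 1.00 in every list.

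On chromosomes 1 to 18, islands sharing 1 bp or more were merged. Reads were summed over the islands of a region, and enrichment is ChIP over input scaled with each list's own constant. Genes came from pig RefSeq (Sscrofa11.1), whose ends were used as windows of 2 kb on either side; that table gives no strand, so a start could not be told from an end, and exons were not used. In each library 37.3% to 45.0% of gene ends lay in an island, against 15.1% to 24.6% of places 100 kb away. Gene interior is the gene body outside all such windows. The regions studied, the 17 gene lists, the 6 marker lists and the naming rule were chosen with earlier results of these data known.

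Reads in the 20051 regions with an island in all 4 libraries were tested with edgeR 4.0.16 (quasi-likelihood, TMM, Benjamini-Hochberg over all of them, threshold 0.05, no covariate). Alternatives were DESeq2 1.42.0, limma 3.58.1 on reads per island kb and on enrichment, no TMM, stricter islands, a read minimum, other widths, windows and merging gaps, and leaving out each library; ends of protein-coding genes only and 3 centred limma fits were added after seeing the data. The overlap and test steps were tested on simulated data. Named were the 10 genes with the most such regions, the 10 with the most per Mb (at least 5), up to 3 per list, the genes of the 5 strongest, 5 most read-dense and 5 widest regions, 18 fixed genes, the 10 with most regions of both kinds (at least 3 of each), and the 5 largest rises and falls at host gene ends, 106 genes in all; 1 gene list and some genes of these are not reported here. R 4.3.3, Python 3.11.15, numpy 2.4.6, pandas 2.3.3 and matplotlib 3.10.9 were used.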

Additional observations from a re-analysis of the deposited data

Results flagged for a closer look

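The X chromosome was outside the rule. There, 160 regions met its other conditions, with a median enrichment over input of 3.36 in pgEpiSC 1 and 1.96 in pgEpiSC 4, a gap between the libraries that the autosomal regions did not have (1.69 and 1.63). A further 299 regions inside X-linked genes were fibroblast-only.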

How the results depend on the processing

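The 9370 regions became 5303 with islands of an FDR under 1e-10, 1140 with islands at least 2-fold over input, and 5300 when islands were merged across gaps of 3 kb. Leaving out 1 library gave 10176 to 18929. Of the 1140, 1015 (89%) overlapped a region of the full set. Regions with an FDR under 1e-10 in both libraries had a median enrichment of 1.85, as the mean of both libraries, against 1.66, and 109 in place of 248 listed genes held a region at 2-fold. The other settings for the number of regions stayed within 1.5 times.

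For gene-end regions (2288 higher in pgEpiSC, 2989 in pEF) and host genes (771 and 650), islands with an FDR under 1e-10 gave 468 and 378 hosts; islands at least 2-fold gave 1808 regions higher in pEF and 87 and 80 hosts. In limma, reads per island kb gave 71 and 7061 regions and 21 and 1773 hosts, and enrichment 19 and 10081 regions and 4 and 2374 hosts. Centred, reads per kb gave 1477 and 1419 regions and 422 and 388 hosts, enrichment 892 and 1151 regions and 261 and 298 hosts, and island width 1874 regions and 372 hosts towards pEF. Without 1 library the ranges were 786 to 2473 and 1078 to 3451 regions and 393 to 887 and 263 to 849 hosts. DESeq2, no TMM and a minimum of 100 reads stayed within 1.5 times, but without TMM the balance turned, with 2881 regions and 949 hosts higher in pgEpiSC against 2253 and 467 in pEF. Of the values of 13 named gene-end regions under these settings, 149 kept their call, 14 kept the direction only, 15 could not be had because no tested region was left there (9 of the 13 with islands at least 2-fold, and CLYBL under 3 settings), and 4 turned, namely BICD1 at -0.35 in reads per kb and -0.81 in enrichment, CLYBL at -0.13 and PCDH15 at -0.061 in enrichment, all uncentred. The cause was not tested. At the depth of these lists 35 regions had an FDR over 0.05 in both libraries.

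No paired analysis was possible because the groups share only the number 1.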

Other observations

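Regions that reached 2-fold in both pgEpiSC libraries were spread over 721 genes, chosen for mention here after their values were seen. TENM2 had 15 of them, NKAIN2 and the lipoprotein receptor gene LRP1B 7 each, and TENM3, GRIK2 and THSD7B 6 each. In LRP1B these were 7 of 14 regions, in THSD7B 6 of 12, and in the ephrin receptor gene EPHA6 5 of 6. All 4 regions of PKHD1, the gene of fibrocystin in kidney and bile duct cilia, reached 2-fold, and PKHD1 had no island at its ends in any library. The axon guidance gene ROBO2 and the neuregulin gene NRG3 had 4 each, of 13 and 15.

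Several genes with 10 or more regions and no fibroblast-only region were on none of the gene lists. FRAS1, a basement membrane gene, had 15 at 33.1 per Mb, ZNF423, a zinc finger gene, 17 at 47.3, TMEM163, a zinc transporter gene, 15 at 53.6, and DENND1A, an endocytosis gene, 15 at 29.0.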
